A study of Mus musculus with 4 samples.

Results

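The clustered protocadherin genes lie side by side on mouse chromosome 18 in the Pcdha (chr18:36930184-37187661), Pcdhb (chr18:37264938-37524479) and Pcdhg (chr18:37661793-37841873) clusters. A peak of accessible chromatin was taken as a member if it overlapped a gene of these clusters, or lay within 5 kb upstream of its start, in the GENCODE vM21 annotation of GRCm38 (mm10). The rule used positions only and found 33 of 117282 peaks, with 5 in Pcdha, 6 in Pcdhb and 22 in Pcdhg. All 33 overlapped a gene body, so none was included through the upstream window alone. The nearest peaks outside the rule were chr18:37655201-37656600, 5193 bp before the Pcdhga1 start, and chr18:37847001-37853700, 5128 bp past the last Pcdhg gene. The deposited values of the former were 60.1 and 55.3 in old replicates 1 and 2 and 75.0 and 79.6 in young replicates 1 and 2. Those of the latter were 242 and 267 in the old samples and 323 and 369 in the young samples.

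The samples were bone-derived mesenchymal stem cells (MSCs), multipotent stromal cells that form bone, cartilage and fat. ATAC-seq, in which a transposase inserts sequencing adapters into open DNA, was run on cells of 2 old samples (mice of 18 to 22 months) and 2 young samples (3 to 5 months). The labels name no strain, genotype or treatment, and both groups grew in culture at 2% O2 with serum. The labels do not say whether a sample was 1 animal or a pool, so the p-values below measure the spread between these samples, which may be technical in part. For young cells the study describes outgrowth from bone pieces and a sort for Sca-1+ CD140a+ cells without CD45 or Ter-119, and whether the old cells were sorted in the same way is not given in the sources used here. Of the markers listed for MSCs, 10 of 10 had a peak within 1 kb of a start, including Pdgfra (CD140a) and Ly6a (Sca-1), while the blood cell markers Ptprc (CD45), Itgam, Cd79a and Cd3e, the endothelial marker Cdh5 and the glial markers Sox10 and Gfap had none. Peaks were present at 2 of 6 blood markers (Klf1 and Spi1), at 2 of 3 endothelial markers and at 3 of 5 markers of neurons and glia.

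Clustered protocadherins are cadherin-like adhesion proteins of the cell surface, best known from neurons, where each cell uses its own small selection of them and so tells its own branches from those of other cells. In Pcdha and Pcdhg, every gene has its own promoter and a large variable first exon, which is spliced to constant exons shared by the whole cluster and coding for the inner end of the protein. Pcdhb genes have a single coding exon each and no shared exons. Most promoters are chosen at random under control of the insulator protein CTCF, cohesin and DNA methylation, whereas the C-type genes at the end of Pcdha and Pcdhg are used more steadily.

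Each deposited value is a count of signal in a peak, scaled to the library total and not divided by peak width, so levels of different peaks are compared per kb of width. Library totals read from the steps of the values were 28259470 to 32559794 counts, and the 33 peaks held between 1 and 1326 of these counts in a sample. In 4 of the 33 at least 1 sample had 3 counts or fewer, and none was at 0.

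Accessible starts were unevenly spread over the clusters. A peak lay within 1 kb of the start for 2 of 14 Pcdha gene records (14.3%), 5 of 22 Pcdhb genes (22.7%) and 20 of 22 Pcdhg genes (90.9%). The same numbers were found within 500 bp and within 2 kb. For all protein-coding genes the share was 15346 of 21866 (70.2%), for non-clustered protocadherins it was 11 of 13 (84.6%), and for genes of the Hox clusters it was 33 of 39 (84.6%). Pcdha and Pcdhb thus lay below these shares and Pcdhg above them. No difference between clusters was tested, because the peak list is common to the samples and neighbouring genes are not replicates.

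All 5 C-type genes had a peak at their start, against 22 of the 53 other gene records. In Pcdha the only starts with a peak were those of Pcdhac1 and Pcdhac2. Pcdha1, Pcdha2, Pcdha3, Pcdha4, Pcdha5, Pcdha6, Pcdha7, Pcdha8, Pcdha9, both gene records that carry the symbol Pcdha11, and Pcdha12 had none. In Pcdhb, peaks marked Pcdhb14, Pcdhb15, Pcdhb16, Pcdhb17 and Pcdhb22, which lie in the later portion of the cluster, while Pcdhb1 to Pcdhb13 and Pcdhb18 to Pcdhb21 had none. In Pcdhg only Pcdhga9 and Pcdhgb7 lacked a peak. A start without a peak is one that the authors' peak list does not hold, and its signal below the calling limit was not analysed here.

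**Figure D1:**
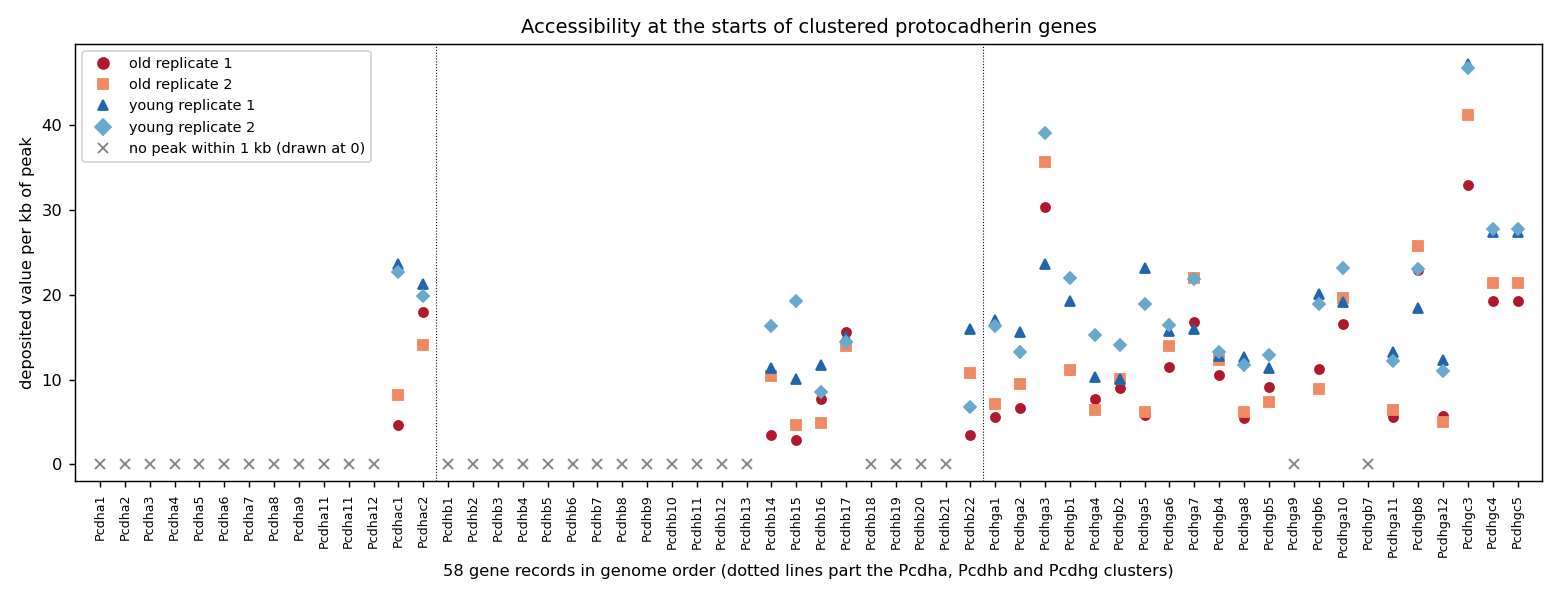
Deposited value per kb of peak (vertical axis, linear) at the start of each of the 58 gene records in genome order, with 1 symbol per sample and grey crosses for starts without a peak within 1 kb. Where a start has more than 1 peak the one with the higher mean value per kb is drawn, and Pcdhgc4 and Pcdhgc5 share a peak. Nearly the whole Pcdhg cluster carries peaks, with the highest values at Pcdhgc3 and Pcdhga3, whereas 12 of 14 Pcdha starts have none.

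Genes of these clusters resemble each other in sequence, and reads that match several places are lost when mapping quality is required. Therefore the share of 50-base stretches that occur once in the genome was computed within 1 kb of each start. It was 82.1 to 96.3% (median 91.3%) at the 12 Pcdha starts without a peak and 86.9 to 100% (median 97.8%) at the 17 such Pcdhb starts. It was 100% at the 2 Pcdha starts with a peak, above all Pcdha starts without one. At the 5 Pcdhb starts with a peak it was 99.6 to 100%. However, it was also 100% at Pcdhb1, Pcdhb2, Pcdhb3, Pcdhb13 and Pcdhb18 to Pcdhb21, which had no peak. At the 20 Pcdhg starts with a peak it ranged from 85.1 to 100% (median 100%), which overlaps the starts without a peak. The part of read mapping in the missing peaks was not tested further.

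The starts also differed from other genes in base composition. In the 300 bases from 250 before to 50 after the start, median GC content was 38.7% in Pcdha, 39.5% in Pcdhb and 42.2% in Pcdhg, against 55.0% over 21951 protein-coding gene starts. The letters CGCT, the core of an element found at most clustered protocadherin promoters, occurred on either strand in 14 of 14 Pcdha windows, 21 of 22 Pcdhb windows and 21 of 22 Pcdhg windows, and in 67.1% of all windows. The string CCCTC occurred in 1 of 14, 6 of 22 and 8 of 22 windows, against 68.2% of all. The part of the lower GC content in these shares was not tested. CGCT was thus about as frequent in Pcdha windows, where few starts had a peak, as in Pcdhg windows, where most did. Neither string contains the other. A match of letters is a description and not a binding site.

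Of the 33 peaks, 28 lay within 1 kb of a start. The other 5 lay elsewhere inside the genes, 1 of them over shared exons. Widths ran from 100 to 14900 bp, with a median of 1000 bp. The value per kb, as the mean of 4 samples, had a median of 14.8 in Pcdha, 9.22 in Pcdhb and 14.0 in Pcdhg, against 13.4 over all peaks and 27.4 over start-site peaks of all protein-coding genes. On this mean, Pcdha and Pcdhg lay near the median of the peak list, Pcdhb lay below it, and all were low for start sites. By sample, the median over all members lay at percentile 32.7 and 24.8 of all peaks in old replicates 1 and 2. In young replicates 1 and 2 it lay at percentile 54.6 and 54.8. In each sample Pcdhb had the lowest median of the clusters, at 4.37 to 12 per kb, against 8.02 to 19.9 in Pcdha and 10.4 to 17.8 in Pcdhg, although in old replicate 2 it was close to Pcdha (8.29 against 8.31).

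Pcdhgc3, whose start peak at chr18:37804301-37809000 is 4700 bp wide, had the highest level per kb of all members. It measured 33 and 41.2 per kb in the old samples and 47.2 and 46.7 per kb in the young samples, and its mean lay at percentile 93.3 of all peaks. Pcdhga3 followed with 30.3, 35.7, 23.6 and 39.1 per kb in old replicates 1 and 2 and young replicates 1 and 2. The peak over the constant exons of Pcdhg, chr18:37832501-37845200, reached 27.5, 32.1, 32.9 and 33.9 per kb in the same order. A peak of 14900 bp, chr18:37812801-37827700, covered the starts of Pcdhgc4 and Pcdhgc5 together with a constant exon, at 19.3, 21.4, 27.4 and 27.8 per kb. The constant exons of Pcdha had no peak of their own. In Pcdhb the highest peak was that of Pcdhb17, at 15.6, 13.9, 15 and 14.4 per kb.

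To compare old with young MSCs, values were scaled with RLE factors (the median ratio of a sample to the geometric mean over samples), which brings the median log2 fold change of all peaks to 0.0011. Each peak was then tested with limma on log2(scaled value + 1), which understates the fold of low values, with Benjamini-Hochberg adjustment over all peaks. At the study's threshold, an adjusted p under 0.01, limma called 0 of the 33 peaks and 0.0563% of all peaks. At an adjusted p under 0.05, it called 1 member, the Pcdhga5 start, and 1.12% of all peaks. At an unadjusted p under 0.05, 8 members were lower in old MSCs (24.2%, against a background of 8.87%) and 1 was higher (3.03%, against 7.49%). The 8 were the starts of Pcdhac1 (its 300 bp peak), Pcdhb15 (its 600 bp peak), Pcdhga1, Pcdhgb1, Pcdhga5, Pcdhga11 and Pcdhga12 and a 1700 bp intronic peak of Pcdha, and the higher one was the start of Pcdhgb8. Limma-voom on counts read from the value steps and plain variance moderation also called 0 members at an adjusted p under 0.01. The count of 8 became 12 without old replicate 1, 6 without old replicate 2, 4 without young replicate 1 and 3 without young replicate 2, where the remaining sample of the group was taken to vary like the other group. The share of all peaks moved with it and was 15.8, 9.72, 5.05 and 3.49% in the same order.

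Without a test, 25 of 33 peaks had a negative log2 fold change, 5 of 5 in Pcdha, 5 of 6 in Pcdhb and 15 of 22 in Pcdhg, compared with 49.9% of all peaks. The median log2 fold change was -0.35 over the members, -0.66 in Pcdha, -0.32 in Pcdhb and -0.19 in Pcdhg. It was -0.049 over the other 3991 peaks of chromosome 18, and -0.028 over the start-site peaks of all protein-coding genes. Both old samples lay below both young samples at 18 of 33 peaks (54.5%), against 24.2% of all peaks and 21 of the 47 other peaks within 250 kb of the clusters (44.7%). They lay above them at 5 (15.2%), against 23.2% of all peaks. Those 5 peaks were all in Pcdhg, and on the deposited values none was above, against 7.56% of all peaks. When each old sample was set against each young sample, the members' median ran from -0.49 to -0.13, while that of Pcdhb ran from -0.77 to 0.022 and so did not keep its sign. The median over all clusters was -0.18 without old replicate 2.

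On the deposited values, with no further scaling, the median of all peaks was itself -0.27, and the share of the library total in peaks was 43.8 and 50.3% in the old samples against 57.5 and 62.9% in the young samples. The members' median was then -0.61, and those of Pcdha, Pcdhb and Pcdhg were -0.81, -0.53 and -0.46. Summed over each cluster, the deposited values were 60.1 and 51.6 in the old samples and 87.4 and 96.9 in the young samples for Pcdha. The sums for Pcdhb were 33.2 and 34.4 against 48.5 and 49.3, and those for Pcdhg were 1051 and 1209 against 1374 and 1453. On this scale the old and young sums did not overlap in any cluster. Over all peaks they did not overlap either, with 4703170 ± 456740 in old and 6020450 ± 377521 in young MSCs (SD, n = 2). Cluster sums were not computed after RLE scaling, so their separation is not shown on that scale. The level of markers of other cell types, pooled over 3 lists, was, like that of all peaks, lower in old MSCs on the deposited scale. These marker sums were not computed after RLE scaling. Summed over the 7 such markers with a start peak (Klf1, Spi1, Pecam1, Tek, Rbfox3, Snap25 and Syt1), the deposited level per kb was 92.5 and 111 in the old samples and 144 and 130 in the young samples, and 3 of the 7 (Spi1, Tek and Syt1) had both old samples below both young samples, as did 25 of the 33 members (75.8%) and 43.5% of all peaks. Taken by list, the old and young sums overlapped for blood cell markers, with 32.6 and 38.6 against 50.7 and 36.1. Those of endothelial markers did not overlap, with 25.1 and 33.5 against 47.0 and 49.5. Nor did those of neurons and glia, with 34.7 and 38.8 against 46.4 and 44.5. The sums over the 10 MSC markers overlapped, with 146 and 215 against 186 and 190, and 2 of the 10 (Ly6a and Lepr) had both old samples below. The part of other cells in the protocadherin values was not tested, and in bulk samples fewer cells with an open site and a less open site per cell cannot be told apart.

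With the dependence of fold change on GC content, width and mean value removed, the medians were -0.39 for the members, -0.63 for Pcdha, -0.18 for Pcdhb and -0.30 for Pcdhg.

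**Figure D2:**
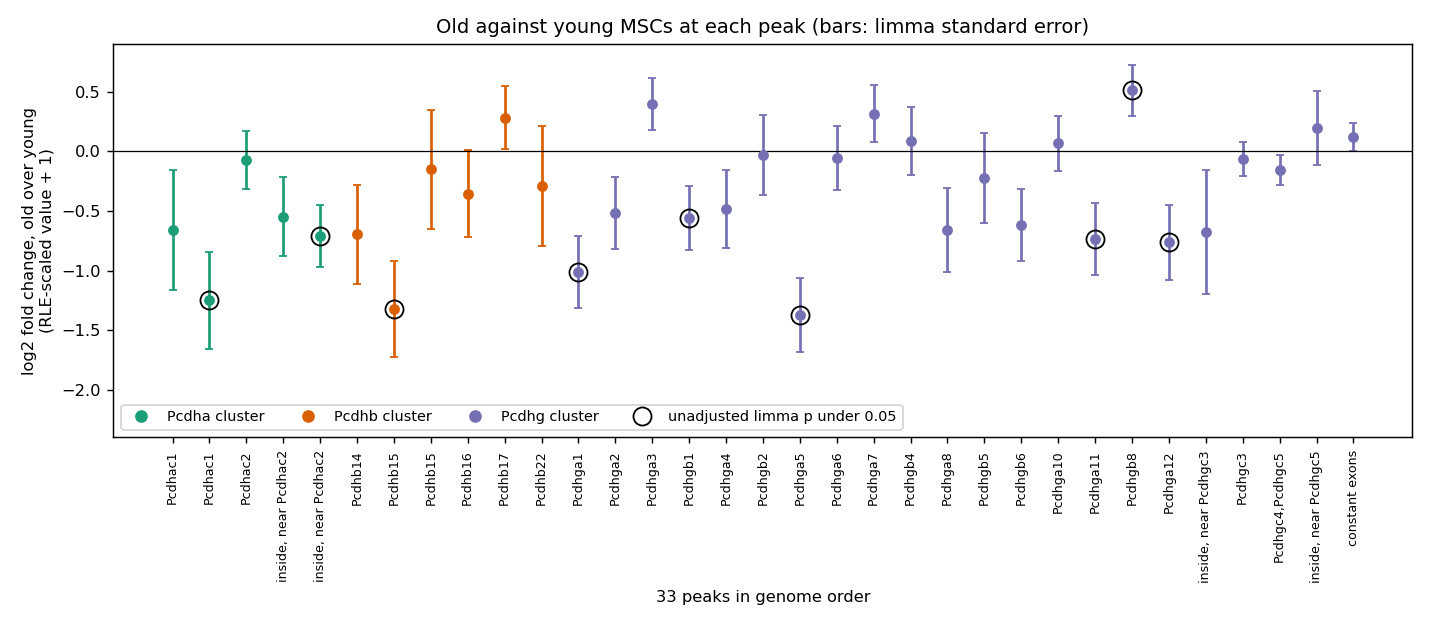
Log2 fold change of old over young MSCs after RLE scaling (vertical axis) for each of the 33 peaks in genome order, coloured by cluster, with the limma standard error as bars and a black ring where the unadjusted p is under 0.05. Most points lie below 0, from -1.38 at Pcdhga5 up to 0.51 at Pcdhgb8, and the wide peaks at the end of Pcdhg lie close to 0.

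In Pcdha, the C-type starts differed in their values. Pcdhac1 had 2 abutting narrow peaks. The 300 bp one, chr18:37089901-37090200, held values of 1.40 and 2.46 in the old samples and 7.08 and 6.80 in the young samples, which are 4, 8, 20 and 20 counts. The groups did not overlap, and the log2 fold change was -1.25 ± 0.41 (SE, n = 2 per group, limma adjusted p = 0.129). The adjoining 100 bp peak, chr18:37089801-37089900, held 1 and 2 counts in the old samples against 4 and 5 in the young samples, too few to resolve a difference. At Pcdhac2, chr18:37142901-37144900, values were 36.0 and 28.3 in old against 42.5 and 39.8 in young MSCs. After scaling these were 36.2 ± 11.5 and 37.3 ± 3.59 (mean ± SD, n = 2), the scaled values overlapped, and the log2 fold change of -0.073 ± 0.24 had an adjusted p of 0.914 (limma) and turned positive without old replicate 2 or without young replicate 1.

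The remaining Pcdha peaks lay in the intron before the last constant exon, beyond all promoters of the cluster. The 1700 bp peak at chr18:37177801-37179500 measured 13.6 and 14.1 in old and 24.8 and 32.6 in young MSCs, again without overlap (log2 fold change -0.71 ± 0.26, limma adjusted p = 0.175). The 700 bp peak at chr18:37172101-37172800 measured 8.74 and 6.14 against 11.7 and 16.0 (-0.55 ± 0.33 on the log2 scale, adjusted p = 0.428). Both intronic peaks were thus lower in each old sample than in each young sample, and neither passed the adjusted threshold. Past the last Pcdha gene, the next peak, chr18:37217301-37218700, was no member and had values of 13.3 and 10.7 against 23.0 and 19.0.

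In Pcdhb, values were small and uneven between replicates. At the 600 bp start peak of Pcdhb15, chr18:37473201-37473800, values were 1.75 and 2.76 in old against 6.02 and 11.6 in young MSCs, from 5, 9, 17 and 34 counts. Its log2 fold change was -1.32 ± 0.40 (limma adjusted p = 0.107), and the young samples lay apart from each other, at 17 and 34 counts. Pcdhb14, chr18:37447401-37447900, had 1.75 and 5.22 against 5.66 and 8.16, where old replicate 2 lay close to young replicate 1 (-0.70 ± 0.42, adjusted p = 0.424). Pcdhb22, chr18:37518301-37518500, had 2, 7, 9 and 4 counts in old replicates 1 and 2 and young replicates 1 and 2, with overlapping groups (-0.29 ± 0.50, adjusted p = 0.823). Pcdhb17, chr18:37484501-37485800, was the most even of the cluster, with 58, 59, 55 and 55 counts and values of 20.3, 18.1, 19.5 and 18.7 (0.28 ± 0.27, adjusted p = 0.640). Pcdhb16, chr18:37477601-37478600, had 22, 16, 33 and 25 counts (-0.35 ± 0.36), and the second, 200 bp peak of Pcdhb15 had 3, 4, 7 and 3 counts, where the groups overlapped.

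In Pcdhg, the A-type and B-type genes alternate along the chromosome, and their 17 start peaks were 500 to 1800 bp wide. The log2 fold change was negative at 12 of these and had a median of -0.49. The lowest p of all members was at Pcdhga5, chr18:37694201-37695100, with values of 5.24 and 5.53 in the old samples and 20.9 and 17 in the young samples. After scaling this was 5.97 ± 0.68 against 17.2 ± 3.35 (mean ± SD, n = 2). The groups did not overlap, with a log2 fold change of -1.38 ± 0.31 (limma adjusted p = 0.0398), and it lay between -1.56 and -1.19 when each sample was left out in turn. Its adjusted p was 0.000525 without old replicate 1, 0.0127 without old replicate 2, 0.362 without young replicate 1 and 0.296 without young replicate 2, so the call at 0.05 was lost without either young sample. With the replicate number as a block it was 0.00736.

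Pcdhga1, the first gene of the cluster (chr18:37661501-37662500), had values of 5.59 and 7.06 in old against 17 and 16.3 in young MSCs. Its log2 fold change was -1.01 ± 0.30 (limma adjusted p = 0.0978). Pcdhgb1, chr18:37680001-37681100, had 12.2 and 12.3 against 21.2 and 24.1 (-0.56 ± 0.27, adjusted p = 0.305). Pcdhga11, chr18:37755501-37756700, had 6.64 and 7.68 against 15.9 and 14.6 (-0.73 ± 0.30, adjusted p = 0.233). Pcdhga12, chr18:37765601-37766900, had 7.34 and 6.45 against 15.9 and 14.3 (-0.76 ± 0.31, adjusted p = 0.231). These 4 peaks are named because their unadjusted limma p was under 0.05, so close replicates and separated groups largely follow from that choice. Both old values lay below both young values in each, as at 43.5% of all peaks on the deposited values. None of the 4 passed the adjusted threshold.

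Other starts of the same cluster had positive log2 fold changes after scaling. At Pcdhgb8, chr18:37760901-37762700, which the annotation calls a polymorphic pseudogene, deposited values were 41.3 and 46.4 in old and 33.3 and 41.5 in young MSCs. The scaled values were 48.4 ± 3.34 and 33.7 ± 3.55 (mean ± SD, n = 2), with a log2 fold change of 0.51 ± 0.21 (limma adjusted p = 0.242). At Pcdhga3, chr18:37673401-37675200, the deposited values of 54.5 and 64.2 in old and 42.5 and 70.4 in young MSCs overlapped, and the scaled log2 fold change was 0.40 ± 0.22 (adjusted p = 0.386). The other 10 A-type and B-type start peaks (Pcdhga2, Pcdhga4, Pcdhga6, Pcdhga7, Pcdhga8, Pcdhga10, Pcdhgb2, Pcdhgb4, Pcdhgb5 and Pcdhgb6) had log2 fold changes from -0.66 at Pcdhga8 to 0.32 at Pcdhga7, with no unadjusted p under 0.05. Among the 8 members with a positive log2 fold change, only 4 (Pcdhb17, Pcdhga3, Pcdhga7 and Pcdhgb8) were also positive on the deposited values.

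Ratios between nearby starts within a sample need no scaling between libraries. They are given for pairs chosen after their values were seen, and so without a test. Pcdhga12 stood at 0.178 and 0.139 of the Pcdhgb8 value in the old samples and at 0.479 and 0.344 in the young samples. Pcdhga11 over Pcdhgb8 gave 0.161 and 0.166 against 0.479 and 0.352. For Pcdhga5 over Pcdhga6 the ratios were 0.417 and 0.360 against 1.2 and 0.943. For Pcdhga1 over Pcdhga3, which have Pcdhga2 between them, they were 0.103 and 0.110 against 0.400 and 0.232. In each of these 4 pairs the ratio was lower in both old samples than in both young samples. The pairs set starts that were lower in old MSCs over even or higher ones, so this direction follows from the choice. Pcdhgb8 is the divisor for both Pcdhga11 and Pcdhga12.

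**Figure D3:**
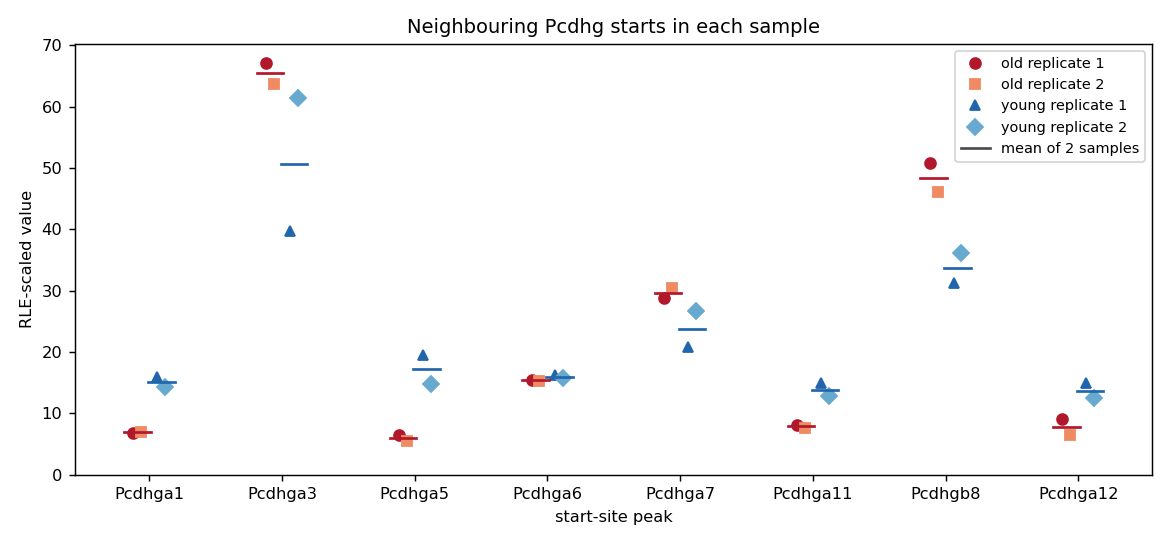
RLE-scaled value (vertical axis, linear from 0) in each sample for 8 Pcdhg start peaks, which include pairs chosen after their values were seen, with a horizontal line at the mean of the 2 samples of a group. At Pcdhga1, Pcdhga5, Pcdhga11 and Pcdhga12 both old samples lie below both young samples, at Pcdhga6 all samples are alike with means of 15.4 and 16.0, and at Pcdhgb8 the old samples lie above.

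Over the 17 A-type and B-type start peaks, the log2 fold change was related to other features of the peak. It was higher at peaks of higher mean value per kb (Spearman's rho = 0.61, Pearson's r = 0.64) and lower at peaks of higher GC content (rho = -0.65, r = -0.60) and CpG density (rho = -0.55, r = -0.47), while its relation to position along the cluster was weak (rho = 0.054). Over all peaks the corresponding rho was -0.18, 0.24 and 0.11, in each case of opposite sign. These are descriptions over peaks that share their libraries and are similar in sequence, and the mean value enters both sides of the first relation. The 8 peaks with the most CpG, 42.0 to 54.0 per kb, had a median log2 fold change of -0.64 with 6 lower. The other 9, with 26.7 to 37.1 per kb, had one of -0.054, also with 6 lower. The 11 A-type peaks had a median of -0.52 with 8 lower, and the 6 B-type peaks one of -0.13 with 4 lower.

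**Figure D4:**
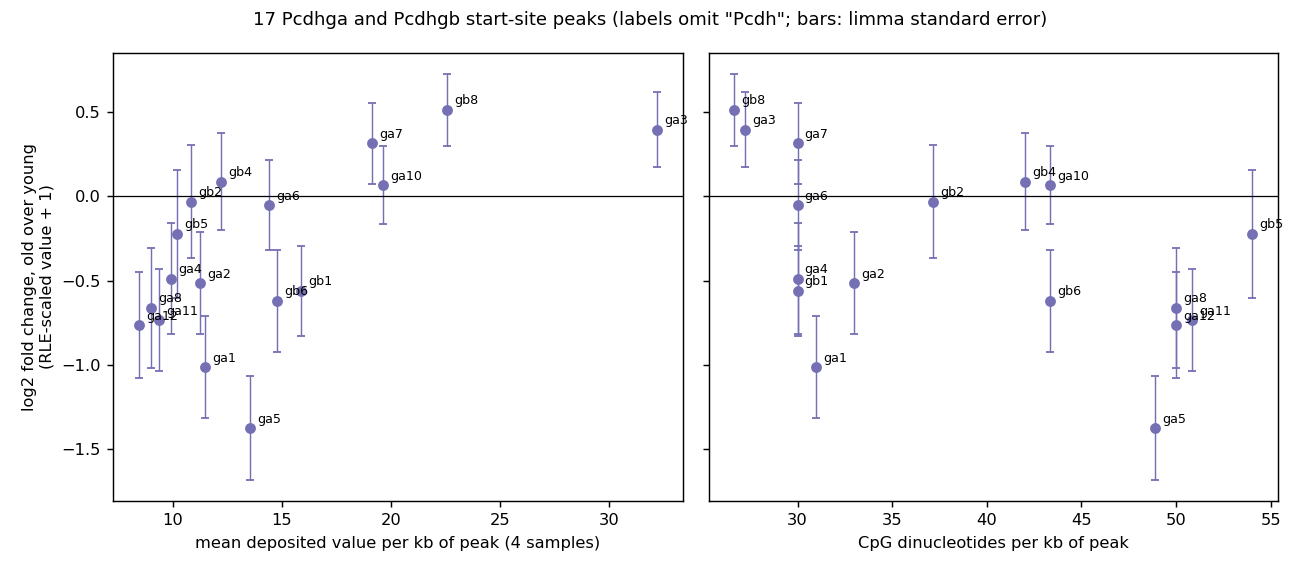
Log2 fold change of old over young MSCs (vertical axis, with the limma standard error) for the 17 Pcdhga and Pcdhgb start peaks against mean deposited value per kb (left) and CpG dinucleotides per kb of peak (right). The peaks with the highest level per kb, Pcdhga3 and Pcdhgb8, have positive fold changes and little CpG, and Pcdhga5, at 48.9 CpG per kb, has the lowest fold change.

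The C-type end of Pcdhg held most of the signal of the cluster and showed small differences. At Pcdhgc3, values were 155 and 193 in old against 222 and 220 in young MSCs, which after scaling became 191 ± 1.06 and 200 ± 11.5 (log2 fold change -0.061 ± 0.14, adjusted p = 0.873, limma). The peak over Pcdhgc4 and Pcdhgc5 had 287 and 318 against 408 and 414 (-0.15 ± 0.13, adjusted p = 0.579). The constant-exon peak had 350 and 407 against 418 and 431, with a log2 fold change of 0.12 ± 0.12 after scaling (adjusted p = 0.667) and of -0.17 on the deposited values, so its direction depended on the scaling. These peaks had 443 to 1326 counts a sample, and the smallest standard errors of the members. The narrow intronic peak chr18:37787601-37787700, with 2, 3, 3 and 12 counts, and the one at chr18:37829101-37830300, with 44, 42, 31 and 59, showed no difference beyond the spread of the young samples.

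Other genes of the pathway were taken from chosen lists by the same rule of position. Non-clustered protocadherins, which have ordinary genes scattered over the genome, held 76 peaks with a median log2 fold change of -0.010. At an unadjusted p under 0.05, 9 were lower (11.8%) and 4 higher (5.26%) in old MSCs, against 8.87% and 7.49% of all peaks. The lowest p belonged to a peak inside Pcdh11x (chrX:120289501-120291000), with 8.74 and 13.5 against 23.4 and 33 (-1.0 ± 0.27, limma adjusted p = 0.0722). Known regulators of the clusters, including CTCF, cohesin and chromatin and DNA methylation factors, held 65 peaks with a median of 0.041. At the unadjusted p, 1 was lower (1.54%) and 7 were higher (10.8%). The lower one was at Stag1, a cohesin subunit (chr9:100685401-100686700), with 34.3 and 35.9 in old against 68.6 and 108 in young MSCs (-0.99 ± 0.22, adjusted p = 0.0376).

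Genes of the Hox clusters, which are also arrays of related genes under shared control, held 47 peaks with a median of 0.15. At the unadjusted p, 1 was lower (2.13%) and 7 were higher (14.9%), against 8.87% and 7.49% of all peaks. Their lowest p was at Hoxd3 (chr2:74739801-74741300), with 40.2 and 52.8 in old against 23.4 and 20.7 in young MSCs (1.31 ± 0.23, adjusted p = 0.0146). The 47 other peaks within 250 kb of the protocadherin clusters had a median of -0.15, with 4 lower (8.51%) and 1 higher (2.13%) at the unadjusted p. Their lowest p was at chr18:36800601-36803500, with 164 and 141 against 247 and 286 (-0.51 ± 0.17, limma adjusted p = 0.126). The protein-coding gene start nearest to this peak was that of the zinc finger gene Zmat2. No peak of these lists passed an adjusted p under 0.01. The median of all clustered protocadherin peaks (-0.35) was lower than that of each of these lists, which is given as a description, since members of a list are not replicates. Taken alone, Pcdhg, with 22 of the 33 peaks, had a median of -0.19, close to the -0.15 of the other peaks within 250 kb.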

How the data were processed

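ATAC-seq of 2 old and 2 young MSC samples was analysed from a table of 117282 peaks. The values deposited by the authors, which they named RPKM, were treated as a score: in each sample 100% were whole multiples of 1 step (tolerance 0.01), equal at narrow and wide peaks, or counts per 10000000 of the library total. For hypoxia- and normoxia-cultured cells, the study's methods describe Bowtie2 mapping to mm10, duplicate removal with Picard, and chromstaR peaks from bins of 300 bp at 100 bp steps with a mapping quality of at least 15. Such bins can count a read repeatedly, and floors such as 3 counts cover counting error only.

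Values were divided by RLE factors (0.813, 1.01, 1.07 and 1.15 for old replicates 1 and 2 and young replicates 1 and 2) and tested with limma 3.58.1 in R 4.3.3 (pseudocount 1, trended robust moderation, all 4 samples, no covariates). The step was tested on simulated data with 200 changed peaks. Replicate numbers share no stated origin between the groups, so they were not taken as pairs. Deviations of same-numbered samples correlated at -0.099, which with 2 samples per group cannot decide whether they were paired. Summaries used Python 3.11.15 and pandas 2.3.3. With 2 samples per group, single values cannot be tested by permutation at a useful level.

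Named are, per cluster, the 3 highest peaks per kb, the 2 largest rises and falls, all C-type and constant-exon peaks and all with an unadjusted p under 0.05. Of the related lists, the peak with the lowest p is named. Members, lists and rules were chosen with earlier results of these data known. edgeR and DESeq2 were planned for recovered counts and not run. The deposited values were treated as a score, and limma-voom was the only model run on recovered counts. No sequence of these loci is reported here. Some marker genes are not reported here.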

Additional observations from a re-analysis of the deposited data

How the results depend on the processing

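The count of peaks lower in old MSCs at an adjusted p under 0.01 was 0 and became 1 on the values as deposited, with the replicate block, with the crossed replicate block (added after the data were examined), with a threshold of 0.05, and 0 to 1 on leaving out each sample. The share of all peaks rose with it, from 0.031% to 1.14, 0.77, 1.87 and 0.77% in that order, and to 5.52% without old replicate 1. The replicate block moved the unadjusted count from 8 to 7 and changed no other call except Pcdhga5. The unadjusted count lower in old was 15 as deposited and 3 to 12 on leaving out a sample, while the share of all peaks went from 8.87% to 18.5% and to 3.49 to 15.8%. That higher in old went from 1 to 0 as deposited and under plain moderation, to 2 with the crossed block, and to 0 to 2 on leaving out a sample. The median log2 fold change became -0.61 over all clusters and -0.46 in Pcdhg as deposited, and -0.39 in Pcdha with pseudocount 5. On leaving out a sample it was -0.43 to -0.18 over all clusters, -0.84 to -0.57 in Pcdha, -0.33 to -0.061 in Pcdhg, and -0.58 to 0.017 in Pcdhb, reversed without young replicate 1. The percent of peaks lower was 87.9 over all clusters and 86.4 in Pcdhg as deposited, 69.7 over all clusters and 50 in Pcdhb under quantile normalization, and 50 in Pcdhb and 77.3 in Pcdhg with GC, width and mean removed. On leaving out a sample it was 63.6 to 75.8 over all clusters, 80.0 to 100 in Pcdha, 50 to 83.3 in Pcdhb and 59.1 to 77.3 in Pcdhg. Without division by width the median level in Pcdhb was 5.36. The log2 fold change of Pcdhac2 reversed in the range -0.40 to 0.26 on leaving out a sample (0.019 without young replicate 1). That of Pcdhb22 reversed to 0.022 under quantile normalization and in the range -0.71 to 0.14 (0.088 without old replicate 1), and that of the constant-exon peak to -0.17 as deposited. The cause was not tested, except that scaling by construction shifts all peaks together. Limma-voom on recovered counts, added after the data were examined, kept the direction of all 19 named peaks; edgeR and DESeq2 were not run. With 2 samples per group and 4 of 33 peaks under 10 counts on average, differences at narrow peaks were not resolved at this depth.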
